A study of Homo sapiens with 18 samples.

Results

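A set of 8 genes of gluconeogenesis was followed in 18 RNA-seq libraries of human hepatoma cells: PC, PCK2, PCK1, FBP1, SLC37A4, G6PC1, G6PC3 and PPARGC1A. They are 8 of the 61806 genes of the count table, and each symbol matched 1 Ensembl identifier. PCK1 and G6PC1 were selected because their levels differed widely between the 2 cell lines after 48 h, and the other 6 were added as members of the same pathway. The 48 h values of PCK1 and G6PC1 are therefore a description without a test, and tests of these 2 genes are given for 0 h and 24 h only. Those tests use the same 2 lines, so a difference between the lines in them is not independent of that choice. All 8 genes passed the filter on low counts and entered the model of 19743 genes.

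Gluconeogenesis makes glucose from lactate, amino acids and glycerol, and in the body it is a task of the liver and kidney during fasting. Pyruvate carboxylase (PC) forms oxaloacetate, phosphoenolpyruvate carboxykinase (PCK1 in the cytosol, PCK2 in mitochondria) turns it into phosphoenolpyruvate, and fructose-1,6-bisphosphatase (FBP1) and glucose-6-phosphatase carry out the late steps. Glucose-6-phosphatase works in the endoplasmic reticulum, where SLC37A4 brings in glucose-6-phosphate and a catalytic subunit cleaves it (G6PC1 in liver, kidney and intestine, G6PC3 in most tissues). PPARGC1A encodes PGC-1alpha, a transcriptional coactivator that is raised in the fasting liver. Glucagon and glucocorticoids are known to raise transcription of PCK1 and G6PC1, and insulin lowers it.

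The cells were HepG2, a human hepatoma line labelled as wild type, and APOA4-KO, a line made from HepG2 by CRISPR-Cas9 with 2 guides against exons 1 to 3 of APOA4, the gene of apolipoprotein A-IV. APOA4-KO was grown from a single colony, so the edit cannot be told apart from other properties of that clone. Each line was sampled without hypoxia (0 h), after 24 h of 1% oxygen and after 48 h of it, and each group held 3 libraries. No cells were kept in normal oxygen for 24 h or 48 h, so the low oxygen and the time in culture cannot be told apart. The labels do not say whether the 3 libraries of a group came from separate cultures, and p-values then measure only the spread between these libraries, which may be technical.

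Libraries held from 76481820 to 91604947 counts. Levels are given as CPM, the counts scaled to the total of the library after adjustment by the trimmed mean of M-values (TMM). APOA4 was still counted in the edited line, with between 6.99 and 8.54 CPM in the APOA4-KO libraries, between 8.46 and 9.67 CPM in HepG2 at 0 h, and between 18.9 and 21.7 CPM in HepG2 after 24 h and 48 h. The 10 hepatocyte markers examined were present in every library. At an adjusted p under 0.05, 8, 7 and 9 of them were higher in APOA4-KO at 0 h, 24 h and 48 h, and 2, 3 and 1 were lower, against 12.9%, 23.6% and 23.5% of all genes higher and 17.6%, 24.6% and 27.3% lower. AFP, TTR and FGB were higher by over 1 on the log2 scale at all 3 times, whereas APOA1 was lower (log2 -0.19, -0.36 and -0.43). Of 10 targets of hypoxia-inducible factors, all 10 rose from 0 h in both lines, after 24 h and after 48 h. Their summed level after 48 h was 2605 to 2650 CPM in HepG2 and 4267 to 4378 CPM in APOA4-KO. Without hypoxia, all 10 were already higher in APOA4-KO than in HepG2 at an adjusted p under 0.05, against 12.9% of all genes. After 24 h of low oxygen, 9 of the 10 were higher by the same limit and 0 lower, against 23.6% and 24.6%. By that limit, 8 were higher in APOA4-KO after 48 h and 2 lower, against 23.5% and 27.3% of all genes. The 2 lower were PDK1 (65.7 CPM against 85.3 CPM in HepG2) and PFKFB4 (328.5 against 395.4 CPM). Of 8 monocyte or macrophage markers, PTPRC, SPI1, CSF1R, ITGAM and MPO were at 0 in some library, whereas LYZ lay between 1037 and 2771 CPM. Without LYZ, that list summed to between 38.5 and 58.6 CPM in HepG2 and APOA4-KO at 0 h and in HepG2 after 24 h and 48 h, to between 50.4 and 64.6 CPM in APOA4-KO after 24 h and to between 74.3 and 82.5 CPM in APOA4-KO after 48 h. The largest part of that sum was CD68, with means of 28.7 CPM in APOA4-KO at 0 h and 69.3 CPM after 48 h. CD14 went from 7.73 to 4.59 CPM there and PTPRC from 3.12 to 3.99 CPM. SPI1, CSF1R, ITGAM and MPO had means under 1 CPM in every group. The 7 fibroblast markers summed to between 28.7 and 54.2 CPM, with 5 of them at 0 in some library. The 5 endothelial markers summed to between 8.55 and 16.8 CPM, with 3 of them at 0 in some library. At an adjusted p under 0.05 and a log2 size of at least 1, COL1A1 was higher in APOA4-KO at all 3 times (1.69, 1.14 and 1.08), LUM at 24 h and 48 h, THY1 at 24 h and CDH5 at 0 h, and no group mean of these 4 genes was above 3.55 CPM. At an adjusted p under 0.05 alone, 2, 3 and 3 fibroblast markers were higher at 0 h, 24 h and 48 h. At those times 0, 1 and 0 were lower. Endothelial markers had 2, 0 and 0 genes higher and 1, 1 and 1 lower, beside the shares of all genes given above. VWF had a lower mean in APOA4-KO at each time (4.693, 4.916 and 2.965 against 6.585, 7.969 and 5.447 CPM). The part of these differences in the results below was not tested. In bulk libraries, fewer cells that express a gene and less RNA per cell cannot be told apart.

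The sequence before the start of G6PC1 is shown because this gene changed in both lines, and that of its paralog G6PC3 because it moved differently. No window was at hand for PCK1, which also changed in both lines. Both are the 250 bases before a RefSeq start on GRCh38.p14, printed in the direction of the gene. G6PC1 lies at chr17:42900549-42900798 on the plus strand, and the G6PC3 window at chr17:44070485-44070734 on the plus strand. Capitals mark matches to the motifs named in the next paragraph.
G6PC1: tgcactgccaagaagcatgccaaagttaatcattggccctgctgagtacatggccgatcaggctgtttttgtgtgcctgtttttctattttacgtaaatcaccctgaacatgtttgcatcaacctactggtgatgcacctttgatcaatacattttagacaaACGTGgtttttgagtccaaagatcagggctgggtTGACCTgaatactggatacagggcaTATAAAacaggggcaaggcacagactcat
G6PC3: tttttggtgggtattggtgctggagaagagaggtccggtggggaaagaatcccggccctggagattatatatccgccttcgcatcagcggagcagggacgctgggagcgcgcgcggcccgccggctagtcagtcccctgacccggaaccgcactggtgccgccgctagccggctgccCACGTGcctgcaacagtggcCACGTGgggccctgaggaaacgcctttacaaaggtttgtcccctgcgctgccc

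A panel of 10 motifs was searched on both strands, and the share of 35116 promoter windows of the same length that hold each is given with it. They were the cAMP response element TGACGTCA (1.65%) and its core TGACG (21.2%), the FOXO site GTAAACA (2.98%), the insulin response sequence CAAAACA (4.3%), the hypoxia response core ACGTG (18.5%), the C/EBP site TTGCNNAA (9.05%), the glucocorticoid receptor hexamer TGTTCT (12.4%), the nuclear receptor hexamer AGGTCA (12.1%), the HNF1 site (0.0057%) and the TATA box TATAAA (10.7%). The cAMP response element holds this core on both strands, and the core TGACG can overlap the hypoxia response core where they share ACG. The G6PC1 window holds the hypoxia response core 88 to 84 bases before the start, the nuclear receptor hexamer on the other strand (TGACCT) at 54 to 49, and the TATA box at 29 to 24. The G6PC3 window holds the hypoxia response core at 2 places, 73 to 68 and 53 to 48 bases before the start, each time read on both strands as CACGTG. The table held 13 windows for 7 of the 8 genes and none for PCK1, which was therefore not searched. Among the other windows, the TATA box was matched before 1 start of SLC37A4 and the nuclear receptor hexamer before PCK2 and 1 start of PC. The hypoxia response core was matched before 1 start each of PC and PPARGC1A and, at bases that the printed window also holds, before the other 2 starts of G6PC3. The core TGACG was matched at 3 places before 1 start of PC and once before a start of PPARGC1A, the C/EBP site before the other start of PPARGC1A and the hexamer TGTTCT before 1 start of PC. These matches are a description of letters in a window of 250 bases.

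The levels of the 8 genes differed widely when compared per length, on the FPKM scale (fragments scaled to the gene length and the library total). In HepG2 at 0 h, PCK2 had the highest level (108 ± 2.26 FPKM, SD, n = 3), followed by PC (25.7 ± 0.515), SLC37A4 (15.4 ± 0.201) and G6PC3 (13.2 ± 0.151). G6PC1 stood at 2.58 ± 0.280, PPARGC1A at 1.25 ± 0.0252, FBP1 at 0.417 ± 0.160 and PCK1 at 0.377 ± 0.0473 FPKM. In APOA4-KO after 48 h, PCK2 was still the highest (89.2 ± 2.71 FPKM), G6PC1 came next (52.8 ± 1.30), and PCK1 reached 18.4 ± 0.527, above SLC37A4 (9.96 ± 0.735) and G6PC3 (7.33 ± 0.459). The remaining values within a gene are counts or CPM, with CPM scaled by TMM as above.

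PC (ENSG00000173599, GRCh38 chr11:66848233-66958376, minus strand), which feeds the pathway from pyruvate, was close to level. Its values were 189, 183 and 191 CPM in HepG2 at 0 h, 193, 193 and 197 CPM after 24 h and 178, 176 and 178 CPM after 48 h. APOA4-KO had 194, 193 and 188 CPM at 0 h, 189, 178 and 192 CPM after 24 h and 204, 209 and 211 CPM after 48 h. In CPM the 2 lines overlapped at 0 h but not after 24 h and 48 h. The libraries of APOA4-KO after 48 h were the highest of all 18 in CPM, but not in FPKM. There APOA4-KO was at 25.58 to 26.1 FPKM after 48 h and at 26.22 to 26.82 FPKM at 0 h. Between the lines the log2 difference was 0.03 ± 0.03 (SE) at 0 h (adjusted p = 0.50), -0.06 ± 0.03 after 24 h (adjusted p = 0.0798) and 0.23 ± 0.03 after 48 h, where it passed the test (adjusted p = 7.66e-07). Over the refits with other settings, the 48 h difference lay between 0.078 and 0.282. Of the exon bases of PC, 10.5% are shared with LRFN4 on the opposite strand, and whether the counting used strand is not stated.

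PCK2 (ENSG00000100889, chr14:24094053-24110598, plus strand), the mitochondrial carboxykinase, was lower in APOA4-KO at 0 h and 24 h and higher after 48 h. In HepG2 it had 461, 447 and 444 CPM at 0 h, 353, 347 and 350 CPM after 24 h and 319, 319 and 312 CPM after 48 h. In APOA4-KO the values were 380, 372 and 364 CPM at 0 h, 215, 216 and 225 CPM after 24 h and 406, 424 and 400 CPM after 48 h. No 2 of the 6 groups overlapped. The log2 difference between the lines was -0.28 ± 0.03 at 0 h (adjusted p = 8.63e-08), -0.68 ± 0.03 after 24 h (1.08e-13) and 0.37 ± 0.03 after 48 h (3.13e-10). HepG2 fell by 0.36 on the log2 scale from 0 h to 24 h and by 0.51 to 48 h, whereas APOA4-KO fell by 0.77 to 24 h and lay 0.14 ± 0.03 above its 0 h level after 48 h (adjusted p = 0.00012). That last value became -0.02 when libraries were scaled by their totals alone.

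PCK1 (ENSG00000124253, chr20:57561080-57568112, plus strand), the cytosolic carboxykinase that is usually taken as the regulated enzyme of the pathway, was low in HepG2 and high in APOA4-KO. Counts in HepG2 were 206, 245 and 194 at 0 h, 137, 160 and 125 after 24 h and 52, 73 and 114 after 48 h. Counts in APOA4-KO were 1259, 1793 and 1413 at 0 h, 5565, 5266 and 5708 after 24 h and 9597, 10538 and 10261 after 48 h. None of the 6 groups overlapped, and the lines moved in opposite directions, so that the ratio of their mean CPM was 6.72 at 0 h, 40.1 after 24 h and 155 after 48 h. The log2 difference between the lines was 2.75 ± 0.14 at 0 h (adjusted p = 2.73e-11) and 5.32 ± 0.15 after 24 h (adjusted p = 2.68e-15). At 48 h it was 7.28 ± 0.17, the value by which the gene was chosen.

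Within HepG2, PCK1 fell by 0.60 on the log2 scale from 0 h to 24 h (SE 0.17, adjusted p = 0.00888), and the value after 48 h was -1.53 ± 0.18 relative to 0 h. The fall after 24 h, under the log2 size of 1, no longer passed the test without HepG2 0 h replicate 2 (log2 difference -0.49, adjusted p = 0.0543). Within APOA4-KO, PCK1 rose by 1.97 ± 0.12 on the log2 scale to 24 h (adjusted p = 1.26e-10) and stood 2.99 ± 0.13 above 0 h after 48 h. The change to 24 h differed between the lines by 2.57 ± 0.21 (adjusted p = 1.77e-08), and the same difference after 48 h was 4.53 ± 0.22.

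The 2 carboxykinases kept their order in every library, with PCK2 above PCK1 on the FPKM scale. PCK1 made up 0.348% ± 0.0451 (SD, n = 3) of the summed FPKM of the pair in HepG2 at 0 h, 0.292% ± 0.0261 after 24 h and 0.166% ± 0.0673 after 48 h. In APOA4-KO it made up 2.77% ± 0.354, 15.96% ± 0.163 and 17.1% ± 0.684. At 48 h the share in APOA4-KO thus lay between 16.7% and 17.9%. The FPKM values imply a length of 6996 bases for PCK1 and of 4268 bases for PCK2, and these lengths enter the shares. The exon bases in GENCODE v29 are 6819 and 4189. The longest run of bases that transcripts of PCK1 and PCK2 share is 26 bases, in GENCODE v29.

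FBP1 (ENSG00000165140, chr9:94603133-94640249, minus strand), which removes a phosphate from fructose-1,6-bisphosphate, was scarcely counted. HepG2 had 98, 54 and 50 counts at 0 h, 19, 66 and 30 after 24 h and 67, 36 and 63 after 48 h. APOA4-KO had 73, 132 and 96 counts at 0 h, 47, 20 and 65 after 24 h and 26, 27 and 27 after 48 h. The libraries of the 2 lines overlapped at 0 h and 24 h, and none of the 3 differences between the lines passed the test (log2 0.53 ± 0.44, 0.25 ± 0.45 and -0.75 ± 0.45, adjusted p = 0.419, 0.706 and 0.186). Within APOA4-KO it fell by 1.67 on the log2 scale from 0 h to 48 h (SE 0.45, adjusted p = 0.00454). The fall to 24 h was 1.11 on the log2 scale and close to the limit (adjusted p = 0.0497), and it lost its call in most refits, such as that without APOA4-KO 24 h replicate 2 (-0.78, adjusted p = 0.204). Of its exon bases, 16.3% are shared with PCAT7 on the opposite strand.

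SLC37A4 (ENSG00000137700, chr11:119024114-119030906, minus strand), the transporter of glucose-6-phosphate, was lower in APOA4-KO at all 3 times. HepG2 had 99.8, 100.2 and 102 CPM at 0 h, 86.6, 84.7 and 82.2 CPM after 24 h and 98.9, 99.7 and 99.2 CPM after 48 h. APOA4-KO had 87.5, 80.3 and 84.0 CPM at 0 h, 44.6, 51.5 and 49.0 CPM after 24 h and 66.7, 70.0 and 77.6 CPM after 48 h. The lines did not overlap at any time. The log2 difference was -0.26 ± 0.05 at 0 h (adjusted p = 0.000658), -0.81 ± 0.05 after 24 h (2.41e-10) and -0.47 ± 0.05 after 48 h (2.82e-07). Both lines were lowest after 24 h, with falls from 0 h of 0.25 in HepG2 and 0.80 in APOA4-KO on the log2 scale. Of its exon bases, 8.79% are shared with TRAPPC4 on the opposite strand.

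G6PC1 (ENSG00000131482, chr17:42900797-42913369, plus strand), the catalytic subunit that releases free glucose, rose in both lines to 24 h and was higher in APOA4-KO at every time. Counts in HepG2 were 851, 928 and 1044 at 0 h, 6010, 6654 and 6273 after 24 h and 617, 600 and 694 after 48 h. Counts in APOA4-KO were 6709, 8254 and 7635 at 0 h, 13245, 12187 and 12527 after 24 h and 17657, 19344 and 18721 after 48 h. In CPM no 2 of the 6 groups overlapped, and the highest HepG2 library (78.1 CPM, after 24 h) lay below the lowest APOA4-KO library (84.7 CPM, at 0 h). The ratio of mean CPM between the lines was 7.80 at 0 h, 2.05 after 24 h and 35.6 after 48 h.

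The log2 difference of G6PC1 between the lines was 2.96 ± 0.06 at 0 h (adjusted p = 1.01e-16) and 1.03 ± 0.06 after 24 h (adjusted p = 2.25e-11), and 5.16 ± 0.07 after 48 h, the value that chose the gene. In HepG2 it rose by 2.75 ± 0.06 to 24 h (adjusted p = 1.95e-16) and stood at -0.67 ± 0.07 relative to 0 h after 48 h. In APOA4-KO it rose by 0.82 ± 0.06 to 24 h (adjusted p = 5.39e-10) and stood at 1.52 ± 0.06 after 48 h. On the log2 scale the change to 24 h was therefore smaller in APOA4-KO, by -1.93 ± 0.08 (adjusted p = 6.27e-12). The same difference after 48 h was 2.19 ± 0.09. From 0 h to 24 h the mean CPM went from 11.3 to 76.28 in HepG2 and from 88.1 to 156 in APOA4-KO. For PCK1 and G6PC1, the log2 changes of the lines to 24 h differed with opposite sign.

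G6PC3 (ENSG00000141349, chr17:44070735-44076344, plus strand), the paralog found in most tissues, fell in APOA4-KO. HepG2 had 102, 101 and 99.8 CPM at 0 h, 93.3, 90.3 and 90.9 CPM after 24 h and 96.6, 96.6 and 95.8 CPM after 48 h. APOA4-KO had 88.8, 91.0 and 92.9 CPM at 0 h, 58.8, 56.3 and 59.0 CPM after 24 h and 62.9, 64.3 and 57.4 CPM after 48 h. The lines did not overlap at any of the 3 times. The log2 difference was -0.15 ± 0.04 at 0 h (adjusted p = 0.0037), -0.66 ± 0.04 after 24 h (2.91e-11) and -0.65 ± 0.04 after 48 h (2.70e-11). G6PC3 and SLC37A4 were thus both lower in APOA4-KO at every time, whereas G6PC1 was higher.

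As a share of the summed FPKM of the 2 catalytic subunits, G6PC1 made up 16.4% ± 1.64 (SD, n = 3) in HepG2 at 0 h, 59.3% ± 0.120 after 24 h and 11.4% ± 0.815 after 48 h. In APOA4-KO the share was 62.9% ± 0.807, 82.5% ± 0.438 and 87.8% ± 0.873. G6PC1 was the larger of the pair in all 9 APOA4-KO libraries and in the HepG2 libraries of 24 h only. The FPKM values imply a length of 7802 bases for G6PC3, against 4551 exon bases in GENCODE v29, and of 4462 bases for G6PC1, against 3296, and these lengths enter the shares. Transcripts of the 2 genes share no run longer than 20 bases.

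PPARGC1A (ENSG00000109819, chr4:23755041-23904089, minus strand), the coactivator, was higher in APOA4-KO at each time. HepG2 had 13.5, 14.0 and 13.7 CPM at 0 h, 19, 20.1 and 17.3 CPM after 24 h and 13.7, 13.9 and 12.9 CPM after 48 h. APOA4-KO had 20.0, 21.1 and 22.6 CPM at 0 h, 42.4, 50.1 and 44.99 CPM after 24 h and 44.7, 46.5 and 43.7 CPM after 48 h. The lines did not overlap at any time. The log2 difference was 0.63 ± 0.07 at 0 h (adjusted p = 5.92e-07), 1.28 ± 0.07 after 24 h (7.73e-12) and 1.74 ± 0.07 after 48 h (8.94e-14).

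HepG2 raised PPARGC1A by 0.46 ± 0.07 after 24 h (adjusted p = 2.79e-05), and after 48 h its difference from 0 h was -0.02 ± 0.07 (adjusted p = 0.874). APOA4-KO rose by 1.11 ± 0.07 to 24 h (adjusted p = 5.97e-11) and was 1.08 ± 0.07 above 0 h after 48 h (adjusted p = 6.41e-11). The change from 0 h was larger in APOA4-KO by 0.66 ± 0.09 after 24 h (adjusted p = 1.85e-05) and by 1.11 ± 0.09 after 48 h (adjusted p = 1.97e-08). With libraries scaled by their totals alone, the rise in APOA4-KO to 48 h was 0.925 and the difference between the lines 0.933, both past the test but under the log2 limit of 1. In HepG2, PPARGC1A and G6PC1 were thus both highest after 24 h.

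Counts of called genes take a log2 fold change of at least 1 in size and an adjusted p under 0.05. Between the lines at 0 h, 2 of the 8 genes were called higher (PCK1 and G6PC1) and 0 lower, against 2.65% higher and 1.66% lower of all genes tested. At an adjusted p under 0.05 alone, 3 were higher and 3 lower at 0 h, against 12.9% and 17.6% of all genes. At 24 h, PCK1, G6PC1 and PPARGC1A were called higher and 0 genes lower, against 4.5% and 3.28% of all genes. At 48 h, among the 6 genes not chosen on these values, PPARGC1A was called higher and 0 lower, against 6.37% and 7.18%. PCK1 and G6PC1 were chosen on the 48 h difference between these same lines. Without them, 0 of the other 6 genes were called at 0 h, and 1 was called higher and 0 lower at 24 h. At an adjusted p under 0.05 alone, 1 of these 6 was higher and 3 lower at 0 h. With so few genes, the counts and shares are given as description only.

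Within HepG2, 1 of the 8 genes was called higher after 24 h (G6PC1) and 0 lower, against 2.06% and 1.02% of all genes. At 48 h, 0 of the 6 genes not chosen on 48 h values were called in either direction, against 1.41% higher and 0.765% lower, and 2 of these 6 had fallen at an adjusted p under 0.05 beside 0 that had risen, against 14.6% and 13.1% of all genes. The 2 that had fallen were PCK2 and PC (log2 -0.08 for PC), and PC no longer passed that limit in several refits, for example without HepG2 0 h replicate 3 (-0.05, adjusted p = 0.267). Within APOA4-KO after 24 h, PCK1 and PPARGC1A were called higher and FBP1 lower, against 3.69% and 2.19%. At 48 h, PPARGC1A was called higher and FBP1 lower among those 6, against 5.34% and 6.85%. When the changes from 0 h of the lines were compared, PCK1 was called higher and G6PC1 lower after 24 h, against 1.41% and 1.19%, and PPARGC1A higher and 0 lower among the 6 after 48 h, against 3.43% and 3.99%.

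The wider pathway was described with a list of 94 genes, of which 89 were tested. The list was chosen with earlier results of these data known, so its counts and shares are a description only. At 48 h, 20 of the 89 were called higher in APOA4-KO and 4 lower, against 6.37% and 7.18% of all genes tested, with a median log2 difference of 0.38 against -0.04. At 24 h the counts were 10 and 3, against 4.5% and 3.28% of all genes (median 0.22 against 0.01). At 0 h they were 7 and 0, against 2.65% and 1.66% (median 0.11 against -0.01). The 7 of 0 h included GCGR, the glucagon receptor, which had no count in any HepG2 library of 0 h and a mean of 0.248 CPM in APOA4-KO. Its fold change is not given because HepG2 was at 0.

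The transcription factors and coregulators, which had the most tested genes, also had more calls than any other group of the list after 48 h. Of their 25 tested genes, 9 were called higher and 1 lower, against 6.37% and 7.18% of all genes. The median log2 difference of the group was 0.83. FOXO1, a factor that insulin signalling keeps out of the nucleus, rose in APOA4-KO and stood at 64.7 ± 0.821 CPM after 48 h against 25.7 ± 0.811 CPM in HepG2 (SD, n = 3), a log2 difference of 1.33 ± 0.06 (adjusted p = 1.82e-12). At 0 h the same difference was 0.04 ± 0.06 (adjusted p = 0.752). FOXO3 differed by 1.36, KLF9 by 1.56, KLF15 by 2.06, NR4A1 by 2.03, SIRT1 by 1.13 and the glucocorticoid receptor NR3C1 by 1.06 after 48 h, all at an adjusted p under 0.05. NR4A3 was also called but had a mean under 0.3 CPM in every group. CEBPB was called (1.38 ± 0.30), with a wide spread in APOA4-KO after 48 h (25.5 ± 10.6 CPM). CEBPA, a factor of hepatocyte differentiation, was the one called lower, with 65.0 ± 0.903 CPM against 179 ± 6.61 CPM and a log2 difference of -1.46. At 24 h, FOXO3, CREB3L3 and PPARA were called higher (1.12, 1.04 and 1.24).

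Among hormone and kinase signalling genes, 6 of 21 tested were called higher after 48 h and 0 lower, against 6.37% and 7.18% of all genes. IGFBP1, a secreted binding protein of insulin-like growth factors that insulin is known to lower, had 4870 ± 378 CPM in APOA4-KO after 48 h against 800 ± 97.5 CPM in HepG2 (log2 difference 2.61 ± 0.07, adjusted p = 5.15e-16). In HepG2 it stood at 297 ± 8.08 CPM at 0 h and 2211 ± 16.8 CPM after 24 h, so that in HepG2 its mean, like that of G6PC1, was highest after 24 h. The insulin receptor INSR differed by 1.34, its substrate IRS1 by 1.43, the kinase SIK1 by 2.36, PDE4D by 1.46 and PDK4 by 1.43 after 48 h, all past the test. PDK4 had a mean of only 1.05 CPM in APOA4-KO at that time.

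The genes that bring carbon into the pathway moved both ways. After 48 h, 3 of 20 were called higher and 3 lower, against 6.37% and 7.18% of all genes. Glycerol kinase GK (84.4 ± 2.83 CPM against 38.2 ± 0.953 CPM), the aspartate aminotransferase GOT1 (232 ± 3.67 against 99.03 ± 3.52) and the tyrosine aminotransferase TAT (3.69 ± 0.387 against 1.26 ± 0.347) were higher. The glycerol-3-phosphate dehydrogenase GPD1 (2.32 ± 0.200 against 12.1 ± 1.29 CPM), the mitochondrial dicarboxylate carrier SLC25A10 (62.4 ± 1.90 against 182 ± 3.92) and the alanine aminotransferase GPT (3.17 ± 0.140 against 6.88 ± 0.296) were lower. At 0 h, LDHB and GPD2 were called higher (1.09 and 1.58). MDH1, the cytosolic malate dehydrogenase, differed by -0.42 ± 0.03 after 48 h (adjusted p = 1.60e-09) and was not called.

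Of 11 tested enzymes that run against gluconeogenesis, 2 were called higher after 48 h and 0 lower, against 6.37% and 7.18% of all genes. They were the hexokinases HK1, with 15.8 ± 1.28 CPM in APOA4-KO against 2.17 ± 0.524 CPM, and HK2, with 908 ± 13 against 330 ± 3.07 CPM. PFKFB3 and PFKFB4, which make the activator of phosphofructokinase, were called higher after 24 h (1.72 and 1.46). At 48 h PFKFB4 was lower in APOA4-KO (-0.27 ± 0.03, adjusted p = 5.29e-08). Of the 9 genes of the reversible steps shared with glycolysis, 0 were called after 48 h by edgeR, where 6 were higher and 3 lower at an adjusted p under 0.05 with a change below the fold limit, against 23.5% and 27.3% of all genes at that p alone. ENO1, an enolase, differed by 0.38 after 48 h (adjusted p = 7.69e-13). The glucose transporter SLC2A2 differed by 0.52 after 48 h, with an adjusted p of 1.20e-06, and was not called. The muscle isoform FBP2 was under a mean of 0.1 CPM in every group and was not tested.

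Within HepG2, 4 genes of the list were called higher and 2 lower after 24 h, against 2.06% and 1.02% of all genes, and 6 and 2 after 48 h, against 1.41% and 0.765%. In APOA4-KO, 7 were called higher and 4 lower after 24 h, against 3.69% and 2.19%, and 18 and 4 after 48 h, against 5.34% and 6.85%. HK2 rose from 0 h to 48 h by 2.06 in HepG2 and by 2.76 in APOA4-KO, and ENO1 by 0.83 and 0.80, each past the test. FOXO1 rose by 0.31 in HepG2 (adjusted p = 0.000986) and by 1.61 in APOA4-KO (adjusted p = 1.48e-13). When these changes were compared between the lines, 13 genes of the list were called higher and 2 lower after 48 h, against 3.43% and 3.99% of all genes, and 2 and 2 after 24 h, against 1.41% and 1.19%.

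The genes whose pattern over the 18 libraries was most like that of PCK1 were GLUL, SYNE3, POLR3A, NCMAP and ABL2 (Pearson r of log2 CPM from 0.993 to 0.974). GLUL, the glutamine synthetase, had 554, 525 and 504 CPM in HepG2 at 0 h, 24 h and 48 h and 661, 767 and 781 CPM in APOA4-KO, so that its range was far smaller than that of PCK1. The genes most like G6PC1 were CTDSPL, GMDS, ZDHHC14, IRX3 and PTPRN2 (r from 0.979 to 0.967). CTDSPL had 31.3, 60.6 and 31.8 CPM in HepG2 and 64.2, 87.9 and 116 CPM in APOA4-KO. The points are 18 libraries that share their 6 groups, and the correlations are a description without a p.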

How the data were processed

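Poly(A) RNA of HepG2 and APOA4-KO was sequenced in 18 libraries, 3 in each of 6 groups, and samples were grouped by the labels. Per the study's methods, the authors used fastp for trimming, HISAT2 for alignment to Ensembl GRCh38.p13 and featureCounts for counting. The submitters' processing notes name fastp, HISAT2 and StringTie, so which tool made the count table is not settled. The deposited count table holds whole, unnormalized counts of 61806 genes. Counts of 4, 8 and 12 were over-frequent (ratios to their neighbours of 2.66 to 3.12, 2.06 to 2.55 and 1.58 to 2.19), so a count need not be a single read pair and small counts are less precise than they look. The deposited FPKM values of 33601 genes were made by the authors from a fixed length per gene and the library total. Handling of strand and of multi-mapped reads is not stated.

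The test was that of edgeR 4.0.16 (R 4.3.3): filterByExpr, TMM, 1 quasi-likelihood model over all 18 libraries with a coefficient per group, and Benjamini-Hochberg adjustment over 19743 genes. Every adjusted p in the text comes from this fit unless another is named. Called genes had an adjusted p under 0.05 and a log2 fold change of size 1 or more. The script was tested on simulated data. Alternatives were DESeq2 1.42.0, its size factors, library totals alone, no filter, only the groups compared, a replicate block, limma 3.58.1 on log2(FPKM + 1) and log2(FPKM + 0.1), and each library left out.

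The 8 genes and all lists were chosen with earlier results of these data known. Named genes are the 8, each gene of the wider list called between the lines, the first gene of each group of that list, the 5 genes most like PCK1 and like G6PC1 by Pearson r (at least 500 counts on average in their highest group), and APOA4 and EPO as checks. A few genes named by this rule are left out of the text. EPO, the study's marker of hypoxia, had means of 5.27, 5.82 and 13.4 CPM in HepG2 at 0 h, 24 h and 48 h and of 8.58, 14.45 and 13.1 CPM in APOA4-KO, and its change in HepG2 to 24 h did not pass the test (adjusted p = 0.33). Gene coordinates are from GENCODE v29 and promoter windows from RefSeq on GRCh38.p14. Replicate numbers occur in all groups, but of 45 pairs of same-numbered libraries 0 had deviations correlated over 0.1, so no block was used. Of the 18 pairs of replicates within groups, 0 were identical and chi-square per gene was between 11.3 and 27.6.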

Additional observations from a re-analysis of the deposited data

Results flagged for a closer look

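The change from 0 h differed between APOA4-KO and HepG2 by a test of the difference itself, or without a test for PCK1 and G6PC1 at 48 h, in 13 cases. At 24 h, the log2 change in APOA4-KO minus that in HepG2 was 2.57 for PCK1, 0.66 for PPARGC1A, -0.40 for PCK2, -0.54 for SLC37A4, -0.51 for G6PC3 and -1.93 for G6PC1. At 48 h it was 1.11 for PPARGC1A, 0.65 for PCK2, 0.20 for PC, -0.21 for SLC37A4 and -0.50 for G6PC3. PCK1 (4.53) and G6PC1 (2.19) were chosen on their 48 h values, and their difference at 48 h was not tested. The sign for PCK2 thus went from negative at 24 h to positive at 48 h, and that for G6PC1 likewise.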

How the results depend on the processing

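The calls of the 8 genes and of the wider list were within 1.5 times the main count under every setting except those given here. Counts at 48 h leave out PCK1 and G6PC1. In APOA4-KO at 48 h, the other 6 genes had 1 call under library totals alone and on log2(FPKM + 0.1), and 0 on log2(FPKM + 1), in place of 2. The difference between the lines at 48 h had 0 calls among these 6 under the same 3 settings, in place of 1. On log2(FPKM + 1), which shrinks low genes, the 8 genes had 1 call in APOA4-KO at 24 h (main 3), and the wider list had 1 call at 0 h (main 7), 6 at 24 h (main 13) and 15 at 48 h (main 24) between the lines, 2 in HepG2 at 24 h (main 6), 13 in APOA4-KO at 48 h (main 22) and 6 for the difference between the lines at 48 h (main 15). With 1 library left out, the wider list had 4 to 7 calls at 0 h, with 4 without HepG2 0 h replicate 1, and the 8 genes had 1 to 2 in HepG2 at 24 h, with 2 without HepG2 24 h replicate 2, where FBP1 was added (log2 -1.40, adjusted p = 0.0388 in edgeR). Scaling by library totals alone moved the median of all genes from -0.04 to -0.19 between the lines at 48 h, from -0.07 to -0.23 in APOA4-KO at 48 h and from -0.04 to -0.21 in the difference at 48 h. Signs turned for values near 0. PC between the lines at 24 h became 0.006 under library totals alone and under both FPKM scales, PC in HepG2 at 24 h became -0.022, -0.021 and -0.022, PC in APOA4-KO at 48 h -0.040, -0.038 and -0.039, and PCK2 in APOA4-KO at 48 h -0.018 in all 3. SLC37A4 in HepG2 at 48 h became 0.008 with only the groups compared and 0.006 without HepG2 0 h replicate 3, and PPARGC1A in HepG2 at 48 h became 0.007 with only the groups compared, 0.007 without HepG2 0 h replicate 2 and 0.029 without HepG2 48 h replicate 3. FBP1 between the lines at 24 h became -0.039 without HepG2 24 h replicate 1 and -0.130 without APOA4-KO 24 h replicate 3, and its difference at 24 h became 0.289 without HepG2 24 h replicate 2 and 0.056 without APOA4-KO 24 h replicate 2. Over all left-out libraries these 3 reached from -0.130 to 0.818 (FBP1 between the lines at 24 h), from -0.657 to 0.289 (its difference at 24 h) and from -0.025 to 0.029 (PPARGC1A). The cause of these turns was not tested. The small differences between the lines in the 48 h change of SLC37A4 (main adjusted p = 0.0313) and PC (0.03 under library totals, adjusted p = 0.588) no longer passed an adjusted p under 0.05 in several refits; both lie under the log2 limit of 1.

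No pairing by replicate number was seen (correlations of deviations between -0.144 and 0.051). With 3 libraries in a group, this check cannot exclude pairing. With the replicate block, the 8 genes had 2 and 3 calls between the lines at 0 h and 24 h, the 6 genes not chosen on 48 h values had 1 at 48 h, and the 8 had 2 in place of 3 in APOA4-KO at 24 h, where FBP1 was lost (adjusted p = 0.07).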

Other observations

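Over the 9 HepG2 libraries alone, the genes most like G6PC1 included CCN1, SERPIND1, CAD and PDIA4 (Pearson r of log2 CPM from 0.998 to 0.996), a choice made after the values were seen and given without a p. CCN1 had 24.0, 65.5 and 20.1 CPM in HepG2 at 0 h, 24 h and 48 h, and 23.5, 34.0 and 206 CPM in APOA4-KO. CAD, which starts pyrimidine synthesis, had 237, 291 and 223 CPM in HepG2 but 170, 120 and 151 CPM in APOA4-KO, where G6PC1 was highest at 48 h.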
